A study of Homo sapiens with 8 samples.

Results

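The quantity examined was the difference between the serum responses of 2 lines made from HCT116, an established line of human colorectal cancer cells. For each gene, the level in starved cells was subtracted from the level after serum, and the value in shControl cells was then subtracted from the value in shCDK8 cells. All 8 of the 8 arrays of the series enter this quantity, and it was computed for 18417 genes. The shControl cells carried a control short hairpin RNA, and the shCDK8 cells carried a short hairpin RNA against CDK8. Both lines were kept for 40 h in McCoy's medium without serum, and cells were then harvested at 0 min or after 30 min in McCoy's 5A medium with 10% fetal bovine serum, with 2 arrays in each of the 4 groups. Each line carried a single kind of hairpin, and the labels do not say whether a line was a clone or a pool. The knockdown therefore cannot be told apart from other properties that may distinguish the lines. Whether duplicates came from different cultures is also unstated, and p-values may thus reflect technical spread between samples alone. Levels are log2 values, a response is a difference of log2 levels, and a negative difference of responses means that the response was smaller, or more negative, in shCDK8 cells.

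Serum added to starved cells activates growth factor receptors and the RAS and ERK kinase cascade, and within minutes a group of genes is transcribed from factors already present in the cell. These immediate-early genes encode transcription factors such as FOS, JUN and the EGR proteins, secreted proteins such as CCN1, and inhibitors that later switch the cascade off. Serum response factor, which binds the CArG box, and CREB, which binds the cAMP response element, act at many of their promoters. CDK8, its paralog CDK19, cyclin C (CCNC) and the MED12 and MED13 proteins form the kinase module of Mediator, the complex that joins transcription factors to RNA polymerase II. The comparison asks which of the responses to serum were altered when CDK8 was depleted.

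The sequences just upstream of 5 genes are shown because the results turn on these genes. PTGS2 and DUSP2 had the largest negative differences among the genes raised by serum, and CCN2 had the largest positive difference. EGR1 and FOS responded in both lines from different starting levels. Each line holds the 250 bases before the start of the RefSeq gene on assembly GRCh38.p14, read 5′ to 3′ on the gene's strand. Capitals mark matches on either strand to 4 motifs, which did not overlap. The first is the CArG box. The second, TGACG, is the core of the cAMP response element. The third, TATAAA, is a form of the TATA box found just upstream of many regulated genes. The last, GGAATG, is the element bound by TEAD factors, the partners of the coactivator YAP.
PTGS2: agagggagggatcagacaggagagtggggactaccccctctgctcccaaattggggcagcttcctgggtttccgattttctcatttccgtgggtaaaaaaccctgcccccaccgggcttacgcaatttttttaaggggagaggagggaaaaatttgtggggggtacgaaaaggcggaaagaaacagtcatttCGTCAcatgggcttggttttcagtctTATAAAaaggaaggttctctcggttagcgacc
DUSP2: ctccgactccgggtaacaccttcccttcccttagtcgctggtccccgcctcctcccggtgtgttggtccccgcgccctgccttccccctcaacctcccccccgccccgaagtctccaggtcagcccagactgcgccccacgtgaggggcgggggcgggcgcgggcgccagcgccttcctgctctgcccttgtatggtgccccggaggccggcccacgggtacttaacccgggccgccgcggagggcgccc
CCN2: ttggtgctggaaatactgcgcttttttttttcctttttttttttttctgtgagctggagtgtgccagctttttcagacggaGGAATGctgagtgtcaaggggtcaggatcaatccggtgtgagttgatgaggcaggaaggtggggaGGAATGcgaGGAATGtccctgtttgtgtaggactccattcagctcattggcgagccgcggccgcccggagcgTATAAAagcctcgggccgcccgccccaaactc
EGR1: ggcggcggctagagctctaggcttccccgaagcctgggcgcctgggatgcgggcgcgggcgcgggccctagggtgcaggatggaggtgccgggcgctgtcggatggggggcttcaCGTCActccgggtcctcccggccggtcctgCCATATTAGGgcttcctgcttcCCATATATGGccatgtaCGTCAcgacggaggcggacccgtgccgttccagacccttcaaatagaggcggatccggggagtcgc
FOS: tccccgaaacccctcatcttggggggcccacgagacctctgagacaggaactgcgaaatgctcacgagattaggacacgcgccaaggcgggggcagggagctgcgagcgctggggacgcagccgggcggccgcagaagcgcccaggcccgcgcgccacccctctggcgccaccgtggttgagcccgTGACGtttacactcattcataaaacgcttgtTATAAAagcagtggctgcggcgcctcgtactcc
The windows lie at chr1:186680424-186680673 on the minus strand for PTGS2, chr2:96145441-96145690 on the minus strand for DUSP2 and chr6:131951373-131951622 on the minus strand for CCN2. Those of EGR1 and FOS lie at chr5:138465229-138465478 and chr14:75278578-75278827, both on the plus strand. The EGR1 window held 2 CArG boxes and 2 matches to TGACG, and the CCN2 window held 3 matches to GGAATG and 1 to TATAAA. The windows of PTGS2 and FOS each held 1 TGACG and 1 TATAAA, and none of the 4 motifs was found in the window of DUSP2. Among 35116 RefSeq windows of this length, 1.16% held a CArG box, 21.2% held TGACG, 10.7% held TATAAA and 11.9% held GGAATG. A match describes the letters and is not evidence of binding.

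The lines differed in the targeted gene as labelled. CDK8 is read by probe set 7968199, which the array annotation assigns to CDK8 and ADRA1B together. It was 4.53-fold lower in shCDK8 cells before serum (limma, adjusted p = 1.44e-05) and 4.45-fold lower after serum (adjusted p = 1.71e-05), and its difference of responses was 0.03 ± 0.09 (SE). Array medians lay between 6.44 and 6.51. Epithelial markers fitted the label: EPCAM lay between 11.68 and 11.83 over the 8 arrays, KRT8 between 12.24 and 12.74 and KRT18 between 11.98 and 12.61. CDX2 lay between 7.84 and 8.21, while VIL1 lay between 5.38 and 5.77, below the array medians. Of 9 colon epithelial markers measured, 7 had a mean level above the array medians. The same held for 1 of 8 blood and endothelial markers (CD68, between 7.21 and 7.34) and 3 of 9 mesenchymal markers (COL1A1 between 7.95 and 8.50, ACTA2 between 7.34 and 8.01 and COL1A2 between 6.55 and 6.84), and for 2 of 5 neural markers (MBP and RBFOX3), while PTPRC lay between 3.53 and 3.66 and VIM between 5.13 and 5.43. COL1A1 was among the serum-raised genes defined below (adjusted p = 0.0292). No measured marker of these cell types reached an unadjusted p below 0.05 in the difference of responses. The serum-treated shCDK8 arrays stood apart from each other in the genes that serum raised, with the first array below the second in 109 of 126, and the main counts over those genes are given with and without each.

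No gene passed an adjusted p of 0.05 for the difference of responses (limma, 0% of 18417 genes). At an unadjusted p below 0.05 there were 335 genes with a difference below 0 (1.82%) and 368 with a difference above 0 (1.998%). The median standard error of a difference was 0.11, against 0.08 for a response within a line, since the difference joins the errors of 4 group means. The number of arrays limits this precision. When the variance prior was allowed to follow a gene's level, 7 genes passed (0.0380%). DUSP2 had an adjusted p of 0.0123, PTGS2 of 0.0181 and CCN2 of 0.0210, and ARC, EGR3, PLK2 and the transcribed pseudogene LOC728024 each had 0.0282. Without the second serum array of shCDK8 cells, DUSP2 alone passed (adjusted p = 0.0212, difference -1.34). Since the call of these 7 genes depends on the setting, their values are given below as measured, with no verb of change for the difference.

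The genes that serum raised held a larger share of smaller responses in shCDK8 cells than all genes did. A total of 126 genes rose in the averaged response of both lines (0.684% of all genes, adjusted p below 0.05) and 14 fell (0.0760%). In a balanced design this average is a contrast orthogonal to the difference, although both use the same estimate of each gene's spread. Of the 126 serum-raised genes, 84 had a smaller response in shCDK8 cells and 42 a larger one, and the median difference was -0.11, against 0.01 over all genes, of which 47.4% lay below 0. At an unadjusted p below 0.05 there were 28 with a smaller response (22.2%, where all genes gave 1.82%) and 6 with a larger one (4.76%, where all genes gave 1.998%). Their median responses were 0.60 (shControl) and 0.48 (shCDK8). RNA was measured in bulk, so fewer responding cells and less RNA per responding cell cannot be told apart.

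**Figure D1:**
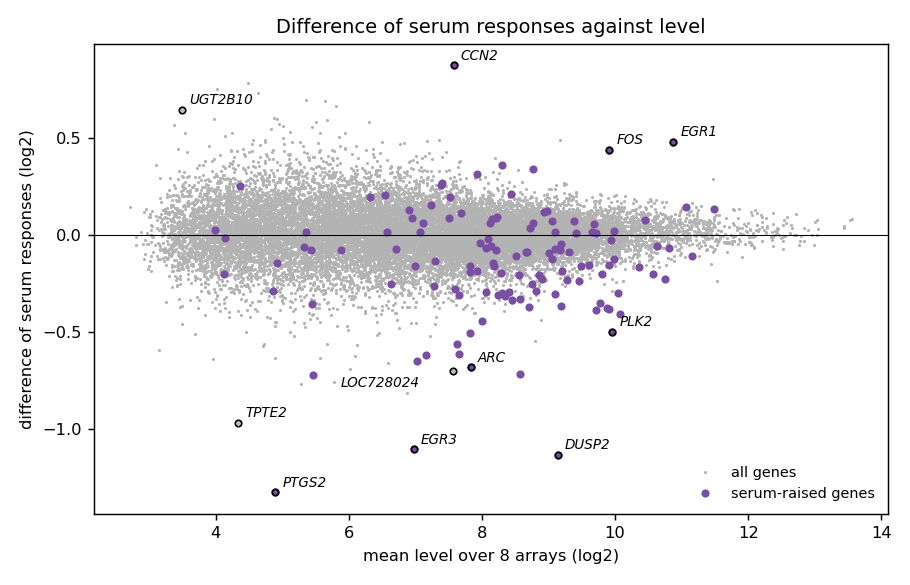
Difference of serum responses (vertical axis, log2, shCDK8 minus shControl) against the mean level over the 8 arrays (horizontal axis, log2) for 18417 genes, 1 grey point per gene, with the 126 serum-raised genes in purple. Of the purple points 84 lie below 0 and 42 above it, with PTGS2 at -1.32 the lowest and CCN2 at 0.87 the highest; a black ring marks a gene written beside its point.

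The difference can also be taken from single arrays, 1 from each group, in 16 ways. Over these ways the sign was the same for 1229 genes below 0 (6.67%) and 1398 above 0 (7.59%). Among the serum-raised genes it was the same for 41 below 0 (32.5%) and 10 above 0 (7.94%). The positive share of serum-raised genes was thus close to the background, and the negative share was above it. Of the 21 genes raised at least 2-fold on average, 16 (76.2%) had a smaller response in shCDK8 cells, and of the 105 raised less, 68 (64.8%) did; these shares were not compared by a test. The 21 had median responses of 2.44 (shControl) and 1.91 (shCDK8) and a median difference of -0.23, and 8 had a smaller and 2 a larger response at an unadjusted p below 0.05.

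The serum-treated shCDK8 arrays did not share this shift equally. The median level of the 126 genes was 8.01 on both starved shControl arrays, 8.85 and 8.86 on the serum-treated shControl arrays, 7.98 and 7.96 on the starved shCDK8 arrays, and 8.64 and 8.86 on the serum-treated shCDK8 arrays. The first serum-treated shCDK8 array was thus the low one, and the second reached the level of shControl cells. The first array was below its duplicate in 109 of the 126 genes (86.5%), against 49.4% of all genes, and in 25 of the 28 with a smaller response. The serum-treated shControl arrays divided evenly, with the first below the second in 65 of the 126 genes. Without the first serum-treated shCDK8 array, 78 of the 126 genes had a smaller response and the median difference was -0.04. At an unadjusted p below 0.05, 14 then had a smaller and 12 a larger response. Without its duplicate, 96 had a smaller response, the median was -0.19 and the counts were 39 and 4. Single-array differences kept 1 sign for 45 genes below and 28 above 0 without the first array (14.4% and 16% of all genes), and for 70 and 13 without its duplicate (15.5% and 17.2%). Of the 21 genes raised at least 2-fold, 14 had a smaller response without the first array, with a median of -0.05 and counts of 4 and 2 at that p, and 19 without its duplicate, with a median of -0.40 and counts of 13 and 2. The count of 8 among the 21 also became 4 without the second starved or the first serum-treated shControl array and 5 without the second serum-treated one. Without the first starved shCDK8 array, 36 of the 126 genes and 4 of the 21 had a larger response.

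The serum-raised genes can also be chosen again from the arrays that remain. With 1 array fewer the design is unbalanced, so the averaged response is no longer orthogonal to the difference. Choosing genes by that average can then itself shift the counts of smaller and larger responses. Without the first serum-treated shCDK8 array, 69 of 118 such genes had a smaller response, with 15 smaller and 15 larger at an unadjusted p below 0.05. Without its duplicate, 71 of 88 had a smaller response, with 34 and 3 at that p. Without the second starved shControl array, 66 of 90 had a smaller response, and without the second starved shCDK8 array 59 of 93 did. The part of the first serum-treated shCDK8 array in the median shift was not tested. The genes described next kept their direction in each fit that left out 1 array, with differences of -1.50 to -1.15 for PTGS2, -1.34 to -0.92 for DUSP2, -1.28 to -0.93 for EGR3, -0.76 to -0.60 for ARC, -0.89 to -0.53 for JUN and 0.77 to 0.97 for CCN2.

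**Figure D2:**
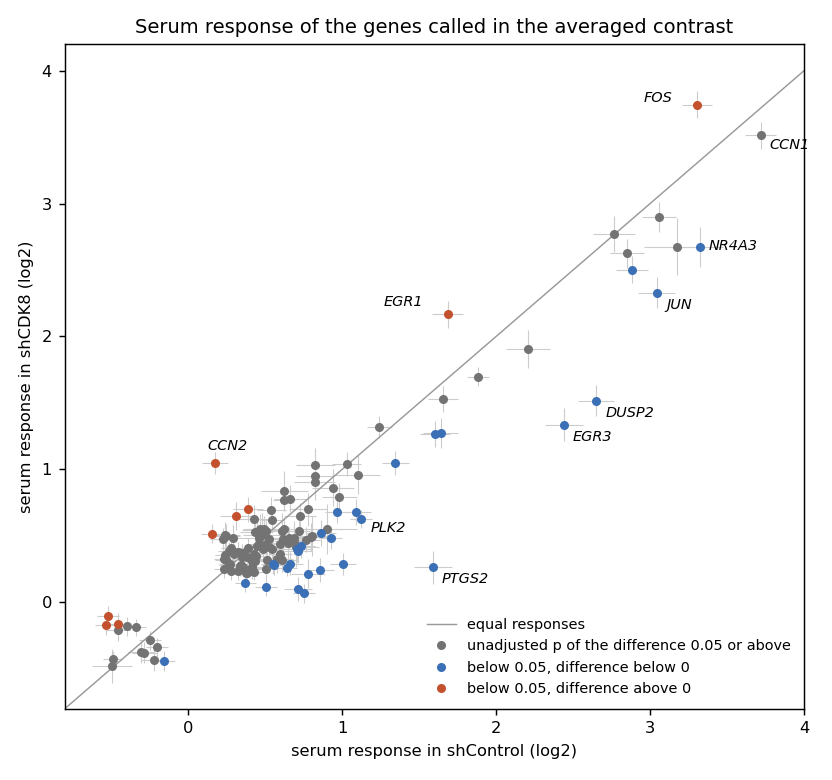
Serum response in shCDK8 cells (vertical axis, log2) against serum response in shControl cells (horizontal axis, log2) for the 126 genes that rose and the 14 that fell in the averaged response, 1 point per gene with bars of 1 SE, the diagonal marking equal responses. Blue points, 28 of them among the genes that rose, lie below the diagonal at an unadjusted p below 0.05, and red points, 6 among the genes that rose, lie above it.

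PTGS2, the inducible cyclooxygenase of prostaglandin synthesis, gave the most negative difference of all genes. In shControl cells it read 4.40 and 4.38 when starved and 6.06 and 5.90 after serum. In shCDK8 cells it read 4.31 and 4.65 when starved and 4.60 and 4.88 after serum. The serum-treated arrays did not overlap between the lines, whereas the starved and serum-treated shCDK8 arrays did overlap. PTGS2 rose by 1.59 in shControl cells (limma, adjusted p = 2.27e-04), and its response in shCDK8 cells was 0.27 (adjusted p = 0.538). The difference was -1.32 ± 0.18 (95% interval -1.72 to -0.93, unadjusted p = 2.57e-05, adjusted p = 0.203), and it lay between -1.73 and -0.92 in every choice of 1 array per group. The gene is dim, with a mean level at percentile 16.9 of all genes. Among 14 measured genes of the prostaglandin pathway it was the only one at an unadjusted p below 0.05, and the receptor gene PTGER4, also serum-raised, had a difference of 0.09 ± 0.15.

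**Figure D3:**
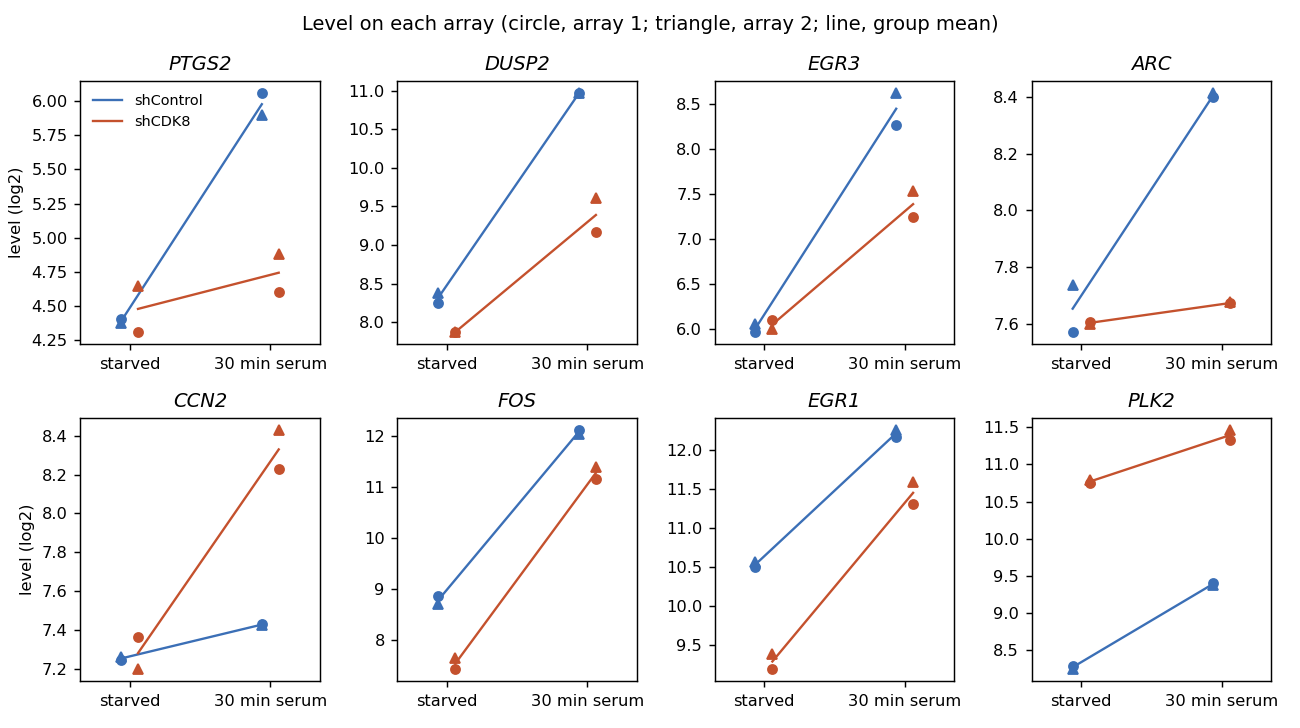
Level (vertical axis, log2, a different range in each panel) of 8 genes in starved and serum-treated cells, with 1 circle or triangle per array and lines joining the group means, shControl in blue and shCDK8 in red. The red lines of PTGS2, DUSP2, EGR3 and ARC are flatter than the blue ones, that of CCN2 is steeper, FOS and EGR1 start lower in red, and PLK2 starts higher in red.

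Of the dual-specificity phosphatases that remove phosphate from MAP kinases, DUSP2 stood farthest from 0. DUSP2 read 8.25 and 8.38 in starved and 10.97 and 10.96 in serum-treated shControl cells, and 7.87 and 7.87 in starved and 9.17 and 9.60 in serum-treated shCDK8 cells. Both serum-treated shCDK8 arrays were below both serum-treated shControl arrays by more than 1 log2 unit. The responses were 2.65 and 1.52, and the difference was -1.13 ± 0.17 (95% interval -1.51 to -0.75, unadjusted p = 6.63e-05, adjusted p = 0.203). DUSP1 responded by 2.88 and 2.50 (difference -0.38 ± 0.15), and DUSP4 by 0.97 and 0.68 (difference -0.29 ± 0.11). DUSP5 had no such difference, with responses of 1.24 and 1.32 and an interval of -0.18 to 0.33. Of 10 phosphatase genes measured, 3 had a smaller and 0 a larger response at an unadjusted p below 0.05, where all genes gave 1.82% and 1.998%, and the median difference was -0.14. Without the first serum-treated shCDK8 array the difference of DUSP4 was -0.19. Of 10 measured genes in the list of Sprouty, SPRED and related feedback inhibitors, 2 had a smaller and 0 a larger response at an unadjusted p below 0.05, against the same shares of all genes. SPRY2, which acts on the same cascade further up, responded by 0.48 and 0.08 (difference -0.40 ± 0.17). SOCS3, an inhibitor of cytokine receptors, responded by 0.24 and -0.08 (difference -0.33 ± 0.10). Neither SPRY2 nor SOCS3 was among the serum-raised genes. With 1 array left out, their differences ran from -0.57 to -0.23 for SPRY2 and from -0.41 to -0.24 for SOCS3.

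The EGR family of zinc finger factors divided on the log2 scale. EGR3 read 5.96 and 6.05 in starved and 8.27 and 8.62 in serum-treated shControl cells, and 6.10 and 6.0001 in starved and 7.24 and 7.53 in serum-treated shCDK8 cells. The starved groups overlapped, and the serum-treated groups did not. Its responses were 2.44 and 1.34, with a difference of -1.10 ± 0.17 (95% interval -1.49 to -0.71, adjusted p = 0.295). NAB2, a corepressor of EGR proteins, had responses of 0.22 and 0.02 and a difference of -0.21 ± 0.09. EGR1 had a larger log2 response in shCDK8 cells and is described with FOS below. Of 5 EGR and NAB genes measured, 3 had a log2 difference below 0 and 2 above it. On the linear scale described below, the difference of increments was below 0 for all 5. ARC, best known as a synaptic activity gene and also an immediate-early gene, read 7.57 and 7.74 in starved and 8.40 and 8.41 in serum-treated shControl cells. In shCDK8 cells ARC read 7.61 and 7.60 when starved and 7.67 and 7.68 after serum. All 4 shCDK8 arrays thus lay within the range of starved shControl cells. Its responses were 0.75 and 0.07 and its difference was -0.68 ± 0.10 (95% interval -0.91 to -0.46, adjusted p = 0.203).

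The AP-1 factors, which pair FOS and JUN family proteins, varied in the size of the difference and, on the log2 scale, in its direction. JUN read 7.26 and 7.004 in starved and 10.20 and 10.15 in serum-treated shControl cells, and 7.29 and 7.36 in starved and 9.47 and 9.83 in serum-treated shCDK8 cells. Its responses were 3.04 and 2.33 (difference -0.71 ± 0.17, 95% interval -1.09 to -0.34, unadjusted p = 0.00193, adjusted p = 0.910). FOSB responded by 3.06 and 2.90, with an interval for the difference of -0.51 to 0.19. JUNB responded by 1.65 and 1.53, with an interval of -0.43 to 0.18. ATF3 responded by 3.18 and 2.68, but its starved shCDK8 arrays read 6.71 and 6.18 and its serum-treated ones 8.78 and 9.46, so the interval ran from -1.18 to 0.18. Of 13 AP-1 and ATF3 genes measured, JUN alone had a smaller and FOS alone a larger response at an unadjusted p below 0.05 (all genes, 1.82% and 1.998%), and the median difference was -0.09. The fitted difference lay below 0 in 10 of the 13 and above 0 in 3, where 47.4% of all genes lay below 0. On the linear scale described below, the difference of increments was below 0 for 11 of the 13 (8680 of all 18417 genes). Of the NR4A orphan nuclear receptors, NR4A3 responded by 3.32 and 2.67 (difference -0.65 ± 0.22), NR4A1 by 2.85 and 2.62 (interval -0.58 to 0.12) and NR4A2 by 2.77 in both lines (interval -0.42 to 0.44). NR4A3 read 7.85 and 8.44 on the serum-treated shCDK8 arrays, and its difference was -0.35 without the first of them.

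**Figure D4:**
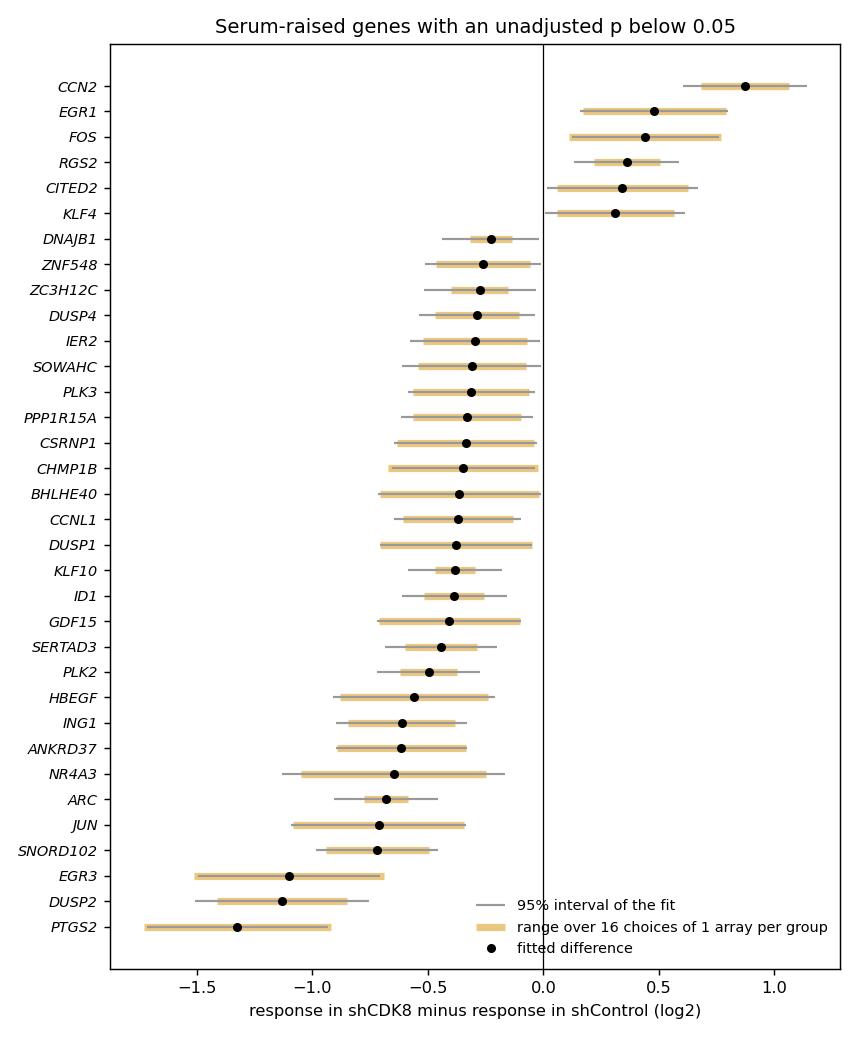
Difference of serum responses (horizontal axis, log2, shCDK8 minus shControl) of the 34 serum-raised genes with an unadjusted p below 0.05, with the fitted value as a black point, its 95% interval as a grey line and the range over 16 choices of 1 array per group as a yellow bar. No yellow bar crosses 0, and the fitted values run from -1.32 for PTGS2 to 0.87 for CCN2.

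Further serum-raised genes with a smaller response at an unadjusted p below 0.05 belonged to several groups. KLF10, a Krüppel-like repressor induced by TGF-beta, responded by 0.64 and 0.26 (difference -0.38 ± 0.09). Its serum-treated arrays read 10.29 and 10.24 in shControl and 10.03 and 9.98 in shCDK8 cells. The level in shCDK8 minus that in shControl cells was -0.26 after serum and 0.12 in starved cells, so both times entered the difference. ID1, an inhibitor of basic helix-loop-helix factors, responded by 0.51 and 0.12 (difference -0.39 ± 0.10) from a starved level that was 0.94 higher in shCDK8 cells. HBEGF, a ligand of the EGF receptor, responded by 0.78 and 0.22 (difference -0.56 ± 0.16). PLK3, a stress-responsive Polo-like kinase, responded by 0.74 and 0.42 (difference -0.31 ± 0.12). The stress genes GDF15 and PPP1R15A had differences of -0.41 ± 0.14 and -0.33 ± 0.13. DDIT3, which encodes the stress factor CHOP and was not among the serum-raised genes, read 6.19 and 6.12, then 6.72 and 6.72 in shControl cells, and 5.90 and 5.72, then 5.68 and 5.94 in shCDK8 cells, a difference of -0.57 ± 0.13. ING1, a chromatin reader, and ANKRD37, an ankyrin repeat protein, each had a difference of -0.61 ± 0.13. IER2, CSRNP1 and BHLHE40, which encode nuclear regulators, had differences of -0.30, -0.34 and -0.36. Without 1 array these came to -0.20 for IER2 (second starved shCDK8 array) and to -0.20 for CSRNP1 and -0.22 for BHLHE40 (first serum-treated shCDK8 array). Without that serum-treated array PLK3 and PPP1R15A each had -0.21. The chaperone gene DNAJB1 was the smallest of the group with -0.23 ± 0.09. SERTAD3, CHMP1B, SOWAHC, CCNL1, ZNF548 and ZC3H12C complete the 28 together with SNORD102 and genes given elsewhere, and these 6 were picked out after their values were seen. Their differences ran from -0.44 for SERTAD3 to -0.26 for ZNF548, and came to -0.18 for SOWAHC without the first serum-treated shCDK8 array and to -0.17 for ZC3H12C without the second starved shControl array. Of the 34 serum-raised genes at an unadjusted p below 0.05, 11 moved by more than 1.5 times when 1 array was left out.

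Some genes started at different levels in the 2 lines, and for these the scale decides what the comparison shows. In starved cells 1313 genes were higher (7.13%) and 1157 lower (6.28%) in shCDK8 than in shControl cells at an adjusted p below 0.05. FOS, the partner of JUN, read 8.85 and 8.70 in starved and 12.12 and 12.04 in serum-treated shControl cells, and 7.42 and 7.63 in starved and 11.16 and 11.39 in serum-treated shCDK8 cells. At both times it was lower on both shCDK8 arrays than on both shControl arrays, with differences of -1.25 before serum (adjusted p = 4.17e-05) and -0.81 after it. Its log2 response was therefore larger in shCDK8 cells, 3.74 against 3.30 (difference 0.44 ± 0.14, 95% interval 0.12 to 0.76, unadjusted p = 0.0119). On the linear scale, where the deposited log2 values were turned back to intensities, serum added 3895 units in shControl and 2294 in shCDK8 cells, and the increment was smaller in shCDK8 cells in every choice of 1 array per group. EGR1 showed the same reversal, with log2 responses of 1.69 and 2.17 (difference 0.48 ± 0.14) and linear increments of 3287 and 2188. EGR1 read 10.50 and 10.56 in starved and 12.17 and 12.26 in serum-treated shControl cells, against 9.19 and 9.38 and then 11.31 and 11.59 in shCDK8 cells. RGS2, which restrains G protein signalling, differed by -2.85 between starved shCDK8 and shControl cells, and its log2 responses were 0.16 and 0.52 while its linear increments were 84.8 and 44.7. The difference of increments of RGS2 ran from -87.1 to 6.83 over the choices of 1 array per group, so its linear direction was not the same in all of them.

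PLK2, a Polo-like kinase and p53 target, showed the opposite arrangement. It read 8.29 and 8.25 in starved and 9.41 and 9.38 in serum-treated shControl cells, and 10.75 and 10.79 in starved and 11.32 and 11.47 in serum-treated shCDK8 cells. Every shCDK8 array lay above every shControl array. The log2 responses were 1.12 and 0.63 (difference -0.50 ± 0.10, 95% interval -0.72 to -0.27, adjusted p = 0.730), while the linear increments were 364 and 953 units. DUSP4 also had a smaller log2 response and a larger linear increment, 218 against 304 units. THBS1, a secreted matrix protein, had log2 responses of 2.21 and 1.91 (interval of the difference -0.75 to 0.15) and linear increments of 400 and 612 units. Over the 126 serum-raised genes, 11 had a smaller log2 response with a larger linear increment and 14 the reverse. The linear increment was smaller in shCDK8 cells for 87 of the 126 (80 without the first serum-treated shCDK8 array and 98 without its duplicate), and the median ratio of the increments was 0.784. For PTGS2, DUSP2, EGR3, ARC and JUN, linear and log2 scales gave the same direction.

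**Figure D5:**
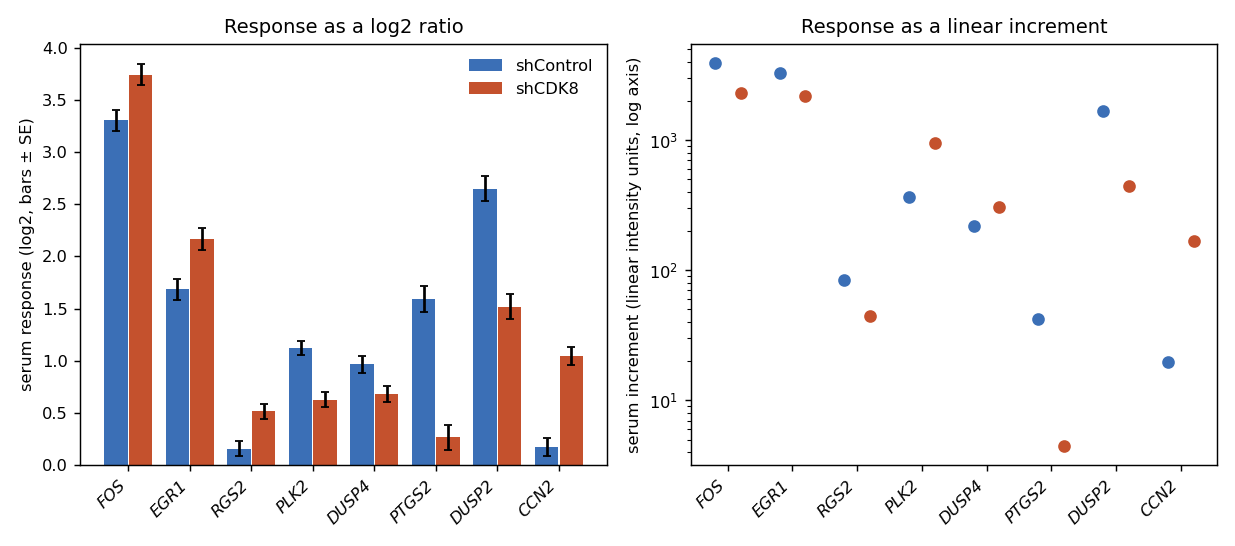
Serum response of 8 genes as a log2 difference (left, bars with 1 SE) and as a linear increment of intensity (right, log axis, 1 point per line), shControl in blue and shCDK8 in red. FOS, EGR1 and RGS2 have the higher log2 response and the lower increment in shCDK8 cells, PLK2 and DUSP4 the reverse, and PTGS2, DUSP2 and CCN2 keep 1 order on both scales.

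CCN2, a secreted matricellular protein and a target of YAP and TEAD, had the most positive difference of all genes. It read 7.25 and 7.26 in starved and 7.43 and 7.43 in serum-treated shControl cells, and 7.36 and 7.20 in starved and 8.23 and 8.43 in serum-treated shCDK8 cells. The starved arrays of the 2 lines overlapped, and both serum-treated shCDK8 arrays lay above all others. The responses were 0.17 and 1.05, and the difference was 0.87 ± 0.12 (95% interval 0.60 to 1.14, unadjusted p = 3.51e-05, adjusted p = 0.203), with linear increments of 19.6 and 166 units. Its relative CCN1 gave no such difference: it read 7.09 and 7.11, then 10.81 and 10.82 in shControl cells, and 6.91 and 7.07, then 10.34 and 10.66 in shCDK8 cells. The responses of CCN1 were 3.72 and 3.51, with an interval for the difference of -0.53 to 0.12. Of 16 CCN genes and YAP-TEAD targets measured, 0 had a smaller and 2 a larger response at an unadjusted p below 0.05 (all genes, 1.82% and 1.998%), and the median difference was 0.04. The other serum-raised genes with a larger response, beside FOS, EGR1 and RGS2, were KLF4, a Krüppel-like factor of differentiating epithelium, and CITED2, which binds the coactivators CBP and p300. KLF4 responded by 0.39 and 0.70 (difference 0.31 ± 0.13) from a starved level 1.07 higher in shCDK8 cells, and CITED2 by 0.31 and 0.65 (difference 0.34 ± 0.15). Without the second serum-treated shCDK8 array each of these differences was 0.19.

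The motifs shown for the 5 promoters were counted over the serum-raised genes. Of the 28 genes with a smaller response at an unadjusted p below 0.05, 23 had a RefSeq window, of which 14 held TGACG, 6 TATAAA, 5 GGAATG and 1 a CArG box. All 6 genes with a larger response had a window, and 4 held TGACG, 2 TATAAA, 1 GGAATG and 1 a CArG box. Of the 92 remaining serum-raised genes, 66 had a window, and 37 held TGACG, 19 TATAAA, 8 GGAATG and 5 a CArG box. TGACG was thus found for most genes with a window in each group. A gene was counted if any of its windows held the motif, whereas the 21.2% counts single windows over all RefSeq windows. These shares are therefore unlike measures. The groups were not compared by a test. No match in a window says only that the letters are not within these 250 bases.

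The machinery around CDK8 gave no difference of responses at an unadjusted p below 0.05. In the kinase module, CDK19 had a difference of -0.19 ± 0.10 (95% interval -0.41 to 0.03), CCNC of -0.07 (interval -0.32 to 0.18) and MED12 of 0.10 (interval -0.14 to 0.34). MED13 had 0.10, MED13L 0.08 and MED12L -0.03, with intervals that held 0. None of 24 core Mediator genes and none of 29 genes of elongation factors and P-TEFb, the kinase that releases paused polymerase, reached an unadjusted p below 0.05. The same held for 20 cytosolic ribosomal protein genes and 11 housekeeping genes. SRF itself, the gene of serum response factor, responded by 0.62 and 0.55 (interval of the difference -0.34 to 0.19). Of 18 SRF, MRTF and actin genes, 0 had a smaller and 1 a larger response at an unadjusted p below 0.05, and the median difference was 0.03. Of 25 p53 targets, 3 had a smaller and 0 a larger response at that p, with a median difference of 0.03. These counts are to be read against 1.82% and 1.998% of all genes, and a p of 0.05 or more does not show equal responses.

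Outside the serum-raised genes, the smallest p-values came mostly from genes under the median level, with changes of opposite sign in the lines. Of the 15 genes with the smallest p and a difference below 0, 8 were serum-raised and 7 had responses of opposite sign. In 9 of the 15 the mean level was under the median of all genes, and these include the serum-raised PTGS2, EGR3 and SNORD102. Of the 15 above 0, CCN2 was the only serum-raised gene, 11 lay under the median level, and in 14 the response was negative in shControl and positive in shCDK8 cells. LOC728024 read 7.16 and 7.13, then 7.69 and 7.64 in shControl cells, and 7.84 and 7.77, then 7.67 and 7.58 in shCDK8 cells, a difference of -0.70 ± 0.09 (adjusted p = 0.203). UGT2B10, which encodes a glucuronosyltransferase, read 3.58 and 3.55, then 3.36 and 3.46 in shControl cells, and 3.23 and 3.27, then 3.76 and 3.73 in shCDK8 cells, a difference of 0.65 ± 0.09 (adjusted p = 0.203). TXNIP, a FOXO and glucose-responsive gene, had responses of -0.33 and 0.23 (difference 0.56 ± 0.14). Among the 14 genes that fell with serum on average, OR2W5P (0.42), HEATR4 (0.36) and RHD (0.29) had a less negative response in shCDK8 cells and EIF5 (-0.29) a more negative response at an unadjusted p below 0.05, and these 4 were named after their values were seen.

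Taken line by line, serum raised 78 genes in shControl cells (0.424%) and 46 in shCDK8 cells (0.250%) at an adjusted p below 0.05. These counts come from separate thresholds on arrays that share 1 estimate of the spread, and they do not test the difference, for which no gene passed.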

How the data were processed

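RNA from 8 samples of HCT116 cells in 4 groups of 2 was measured on 1 Affymetrix array each. The authors deposited log2 probe set values made with RMA, per the submitters' processing notes. Its version is not stated in the labels, and joint normalization of the arrays was not given in the sources used here. RMA sets all arrays to 1 distribution, so a change shared by most genes would not be seen, and it narrows differences of dim probes.

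Of 33297 probe sets, the array annotation listed 21214; 19460 had exactly 1 gene, 1754 had several or none, and 12083 were not listed. Entrez identifiers of 19429 matched the RefSeq table (GRCh38.p14), and 0 symbols changed. For 769 genes with several probe sets the brightest was used, which left 18417 genes. All 8 arrays were fitted with 4 group means in limma 3.58.1 in R 4.3.3 (4 residual and 5.49 prior degrees of freedom, no filter). The contrast was the shCDK8 response minus the shControl response, two-sided, with Benjamini-Hochberg adjustment over all genes. Intervals are at 95%. Linear increments are differences of group means of 2 raised to the deposited value. The CDK8 probe set was fitted with all probe sets together.

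Named were genes past an adjusted p of 0.05 with or without an intensity trend, and the 15 with the smallest p in each direction. Members of the immediate-early, feedback and Mediator kinase lists were also named. In each of the other lists, up to 4 members with the smallest p in the difference were named. Genes picked in that way do not stand for their lists. There were 39 lists in all, and a list's members are those measured. Members and lists were chosen with earlier results of these data known. Alternatives were an intensity trend, a replicate block, a filter at the 25th percentile of level, cyclic loess, median centring, mean probe sets, all probe sets together and leaving out each array; counts over serum-raised genes under them were added after seeing the data. The fit was tested on simulated data. Figures were drawn with matplotlib 3.10.9.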

Additional observations from a re-analysis of the deposited data

Results flagged for a closer look

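Among the named genes and markers, 23 had serum responses of opposite sign in the 2 lines on every array: each serum-treated array of one line was above both of its starved arrays, and each of the other line was below both. This pattern was seen in 654 of all 18417 genes (3.55%), 310 of them higher after serum in shControl and 344 lower, so it is not particular to these. Opposite signs also raise the size of a difference, and 19 of these genes were named for their small p. None passed the adjusted test of the difference (limma, adjusted p from 0.203 to 0.9998).

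In 7 genes the response was positive in shControl and negative in shCDK8 cells. The differences of responses were -0.70 for LOC728024, -0.97 for TPTE2, -0.81 for SLC35G3, -0.48 for PLEKHA8P1, -0.45 for FAM174A, -0.56 for KBTBD8 and -0.19 for CDK19. In 16 genes the response was negative in shControl and positive in shCDK8 cells. The differences were 0.65 for UGT2B10, 0.53 for ZNF674, 0.46 for GCNT4, 0.48 for SNTB1, 0.58 for OR10G4, 0.41 for ZNF69, 0.53 for OR5L2, 0.58 for STARD7-AS1, 0.39 for CENPC, 0.40 for C3orf52, 0.39 for UBASH3A, 0.42 for ZNF37A, 0.48 for GJA1, 0.56 for TXNIP, 0.24 for ARHGEF17 and 0.24 for ASCL2. OR10G4 and OR5L2 encode olfactory receptors and read between 3.38 and 5.82 on all arrays, below the array medians.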

How the results depend on the processing

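With 2 arrays a group, 7 genes passed with the intensity trend and 0 to 1 when 1 array was left out, against 0. Genes at an unadjusted p below 0.05 numbered 583 below and 640 above 0 with all probe sets together (335 and 368 as designed), 222 above with dim genes filtered out, and 270 to 417 below and 356 to 583 above with 1 array left out; the 583 above came without the first starved shControl array. Genes whose arrays kept 1 direction (2627) numbered 4757 with all probe sets and 5302 to 6212 with 1 array fewer, which leaves fewer choices of arrays. The median difference over serum-raised genes (-0.11), chosen again in each setting, was -0.19 with all probe sets and -0.23 to -0.035 with 1 array left out. The trend gave 199 serum-raised genes, of which 125 had a smaller response, 45 of them at an unadjusted p below 0.05 (limma). Replicate numbers were shared by the groups, and the labels do not say whether same-numbered arrays were paired. Deviations of same-numbered arrays correlated between -0.19 and 0.13, and with 2 arrays a group these values cannot settle it. With the replicate block 0 genes passed, and 344 were below and 400 above 0 at an unadjusted p below 0.05. Signs turned under median centring for NR4A2 (-0.007) and KLF6 (-0.0038). With 1 array left out, values crossed 0 for NR4A2 (-0.23 to 0.25), KLF6 (-0.12 to 0.15), FOSL2 (-0.22 to 0.069), GEM (-0.36 to 0.079), JUNB (-0.27 to 0.021), NUAK2 (-0.060 to 0.32), DUSP5 (-0.038 to 0.19), PTGER4 (-0.10 to 0.27), SRF (-0.16 to 0.010), CCNC (-0.17 to 0.024), MED12L (-0.066 to 0.0071) and MED13L (-0.0057 to 0.16). The causes were not tested. The other values of 102 named genes kept their direction.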

Other observations

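Small nucleolar RNA genes, whose RNAs guide modification of ribosomal RNA and mostly lie in introns of host genes, leaned below 0. Of 175 such genes, 113 (64.6%) had a difference of responses below 0, against 47.4% of all genes. At an unadjusted p below 0.05, 12 (6.86%) lay below 0, against 1.82% of all genes. At that p 3 (1.71%) lay above 0, near the 1.998% of all genes. Their median difference was -0.05. SNORD102, the most negative of them and a serum-raised gene, read 5.07 and 5.16 in starved and 6.04 and 6.20 in serum-treated shControl cells, and 5.08 and 5.25 in starved and 5.44 and 5.46 in serum-treated shCDK8 cells. Its responses were 1.01 and 0.29, and the difference was -0.72 ± 0.12 (limma, unadjusted p = 1.41e-04, adjusted p = 0.325). Of 8 U1 variant genes, 5 were serum-raised, against 0.684% of all genes. Median responses over the 8 were 0.49 in shControl and 0.41 in shCDK8 cells, but the median difference was 0.08. The difference lay below 0 in 3 of them and above 0 in 5, with 0 at an unadjusted p below 0.05.

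Mitotic genes lay slightly above 0: 23 of 26 had a difference above 0, with a median of 0.08, but KIF11, the spindle motor, alone reached an unadjusted p below 0.05 (0.23 ± 0.10). Of 29 E2F and DNA replication genes, 22 lay above 0, with a median of 0.03 and none at that p. Of all 18417 genes, 9683 lay above 0, with a median of 0.01, and 1.998% lay above 0 at that p. Members of each list share arrays and vary together, and these signs were not tested.

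Genes at an unadjusted p below 0.05 were unevenly spread over levels. In the dimmest of 4 equal groups by mean level (4605 genes), 114 (2.48%) lay below and 175 (3.8%) above 0 at that p. In the brightest (4604 genes), 41 (0.891%) lay below and 8 (0.174%) above 0 at that p. All genes gave 1.82% and 1.998%. Of the 126 serum-raised genes, 12 were in the dimmest group and 61 in the brightest. Of the 13837 probe sets without exactly 1 gene, 687 (4.96%) had an unadjusted p below 0.05 and 0 passed the adjusted test (limma).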
